A study of Mus musculus with 14 samples.

Results

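Spiral ganglion neurons carry sound signals from the hair cells of the cochlea to the brainstem. The cells described here were chosen by their levels of Lypd1 and Calb2 at embryonic day 16 (E16): at least 3 Lypd1 molecules per 10000 UMIs (unique molecular identifiers, the counted RNA molecules) and no Calb2. They number 880 of 2478 E16 cells and of 5441 cells in the series. They are compared with 786 E16 cells of the same libraries that had a UMI of neither gene. All animals were CD1 mice with no allele or treatment named in the labels, and each biological replicate pooled the ganglia of 5 embryos or pups, to which some sensory epithelium and mesenchyme stayed attached. Each of 3 E16 replicates gave an apical and a basal library, cut apart at the middle turn and matched here by replicate number. The sample titles give this number and name no litter. A replicate at E16 is called a litter below, so the 6 E16 libraries come from 3 litters in this sense. E14 and E18 have 3 libraries each and P1 (postnatal day 1) has 2. The enzyme used to free the cells was trypsin in the younger ganglia (E14, E16) and papain in the older (E18, P1), so enzyme and age cannot be told apart between those pairs. The remaining E16 cells were 146 with less Lypd1 and no Calb2, 537 with Calb2 and no Lypd1, 82 with Calb2 and at least 3 Lypd1 per 10000, and 47 with Calb2 and less Lypd1.

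Most neurons of the ganglion are type I, which contact inner hair cells, and a minority are type II, which contact outer hair cells. Type I neurons are divided into IA, IB and IC, which differ in gene expression and in where they contact the inner hair cell. Calb2 (calretinin, a cytosolic calcium buffer) is strongest in type IA. Lypd1 (a membrane-anchored protein of the Ly6/uPAR family, relatives of which bind nicotinic acetylcholine receptors), the transcription factors Runx1 and Pou4f1, and the adhesion molecule Ntng1 (netrin-G1) are known from types IB and IC. Cdk14 is a cyclin-dependent kinase linked to Wnt signalling. The cells described here are candidates for early IB and IC neurons.

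Promoter sequence was read for Lypd1 and the 15 genes with the largest higher values in these cells, to see whether the letters of the core Runx motif lie before their starts. The motif searched was TGTGGT on either strand (ACCACA on the other), in the 250 bases before each RefSeq start in GRCm38.p6. Of 16 genes 13 matched the table with 20 windows, and 3 windows held the motif, 1 each of Lypd1, Mgat4c and Sema3a (15%, against 14.05% of all 32851 windows of that length). The share is near that of all windows, and a match describes letters only. The windows of Lypd1, which chose the cells, and of Sema3a, a secreted guidance cue described further on, are printed 5′ to 3′ with the motif in capitals. They are chr1:125912215-125912464 on the minus strand and chr5:13396534-13396783 on the plus strand. Lypd1 had 3 windows, of which only the printed 1 held the motif. That window lies within the span of the Lypd1 gene given below, so it precedes a start inside that span.
Lypd1: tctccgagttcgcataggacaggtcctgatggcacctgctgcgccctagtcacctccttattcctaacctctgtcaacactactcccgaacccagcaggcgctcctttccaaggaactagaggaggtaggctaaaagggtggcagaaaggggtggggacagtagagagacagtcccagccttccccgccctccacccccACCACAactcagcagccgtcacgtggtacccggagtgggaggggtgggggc
Sema3a: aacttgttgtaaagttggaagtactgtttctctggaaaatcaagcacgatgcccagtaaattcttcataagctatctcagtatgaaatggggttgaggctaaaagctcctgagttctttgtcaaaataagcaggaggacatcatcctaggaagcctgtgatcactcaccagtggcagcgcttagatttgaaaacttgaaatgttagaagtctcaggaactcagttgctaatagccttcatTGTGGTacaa

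Lypd1 and Calb2 made the choice, so their values are given as a description only. Lypd1 stood at a median of 13.6 per 10000 in the 880 cells, with a median of 7 UMIs and at most 36. At least 5 Lypd1 UMIs were present in 611 of them, while 27 had 1 and 71 had 2. Just inside the threshold the lowest cell had 3.03 per 10000, and 58 cells lay from 3 to under 4. Just outside it the highest had 2.99, and 37 lay from 2 to under 3. In the summed cells of a library Lypd1 had 1165, 1424 and 1678 CPM (UMIs of the gene in 1e6 UMIs of the summed cells, as lowest, median and highest library). Over all E16 libraries the Lypd1-high and the comparison cells had a median of 5523 against 5618.5 UMIs and 2695 against 2784 genes per cell. Hbb-bs, a haemoglobin gene of red blood cells, had a UMI in 51.4% against 55.1% of them. Within every E16 library the Lypd1-high cells had fewer UMIs and genes at the median and a higher mitochondrial share of UMIs. In apex replicate 3 the medians were 5619.5 against 6640 UMIs and 2787 against 3150.5 genes. They were 2605 against 2770 and 1544 against 1659 in base replicate 2. The mitochondrial share was 3.16% against 2.89% in base replicate 3 and 3.14% against 3.08% in base replicate 2. Median depth per library ran from 2769 UMIs in base replicate 2 to 9537 in base replicate 1, and 0 cell barcodes were shared between E16 libraries.

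The Lypd1-high cells made up 40.9%, 45.96% and 40.3% of the 3 apical libraries and 25.5%, 25.97% and 28.1% of the 3 basal ones. With every cell thinned to 3000 UMIs and classed again, the shares were 43.8%, 49.2% and 43.9% at the apex and 27.4%, 18.5% and 32.4% at the base. At 3000 UMIs 1 Lypd1 UMI already passes the threshold, and a cell that loses its Calb2 UMIs can enter the class. The thinned and unthinned shares therefore rest on different effective rules. After thinning all apical libraries were above all basal ones, by 19.6 percentage points on average (exact two-sided permutation test, p = 0.1, the smallest that 3 against 3 allows, and 0.25 when paired by litter). Thinning left 151 of the 466 cells of base replicate 2. The unthinned shares kept this order, but 2 other counts did not. Among cells without Calb2 the unthinned shares were 43.5%, 51.5% and 52.4% at the apex and 39.5%, 38.3% and 68.05% at the base, a difference of 0.532 points (exact permutation p = 1). Among cells of at least 5000 UMIs the apical minus basal difference was -2.71 points (exact permutation p = 1). Calb2 enters the rule, and cells with Calb2 and no Lypd1 were 5.18%, 8.27% and 19.4% of the apical and 29.4%, 28.5% and 43.3% of the basal libraries. Depth touches the rule as well: at the median depth of base replicate 2, 1 Lypd1 UMI already passes the threshold, and that library held 2 cells without Calb2 and with Lypd1 under it, where apex replicate 2 held 56.

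**Figure D1:**
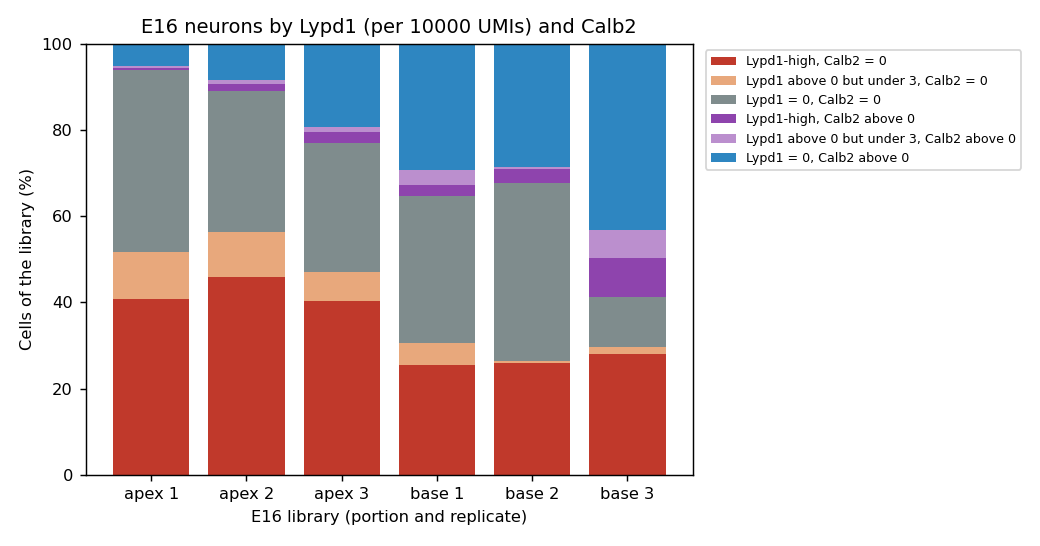
Stacked bars give the percent of cells of each E16 library (x axis, portion and replicate) in 6 classes by Lypd1 per 10000 UMIs and by Calb2, without thinning. The Lypd1-high class without Calb2 runs from 40.3% to 45.96% at the apex and from 25.5% to 28.1% at the base, and the class with Calb2 alone is larger in each basal library than in any apical one.

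The 4 genes that mark the class besides Lypd1 were all higher in the Lypd1-high cells, in 6 of 6 libraries each. Across all genes 1017 of 8286 genes passed an adjusted p of 0.05 (12.3%), 544 higher (6.57%) and 473 lower (5.71%), with edgeR and the library as a block, and 416 passed in DESeq2. Runx1, a transcription factor that acts in the choice of sensory neuron types, had 229, 349 and 489.7 CPM against 49.96, 75.1 and 86.8 (lowest, median and highest library, log2 difference 2.25, SE 0.10, adjusted p = 4.7e-19). Pou4f1, a POU-domain factor of sensory neurons also called Brn3a, had 146, 223 and 262 CPM against 14.98, 17.02 and 54.5 (log2 difference 2.79, SE 0.13, adjusted p = 2.6e-18). For both factors every library of Lypd1-high cells lay above every library of comparison cells. Ntng1 had 266, 363 and 458 CPM against 78.3, 103 and 141 (log2 difference 1.65, SE 0.11, adjusted p = 3.2e-14). Cdk14 had 270.4, 358 and 476 CPM against 35.1, 73.04 and 119 (log2 difference 2.22, SE 0.10, adjusted p = 4.2e-19). Neither of these overlapped between the groups. How many of all tested genes lie apart in this way, here and below, was not counted. In mm10 all are protein coding and on the minus strand, Lypd1 at chr1:125867622-125913101, Ntng1 at chr3:109780040-110144011, Cdk14 at chr5:4803391-5420312, Pou4f1 at chr14:104461676-104467999 and Runx1 at chr16:92601466-92826149. The replicate libraries share litters, so the p-values measure spread between libraries and not between 6 independent litters.

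The label was checked against a wider list of IB and IC markers. Of its 6 tested members 5 were higher and 0 lower, with a median log2 difference of 1.94 against 0.01 over all genes tested. The fifth was Calb1 (calbindin, a calcium buffer), with 59.5, 109.8 and 167 CPM against 16.2, 39.7 and 87.8 (log2 difference 1.21, SE 0.15, adjusted p = 5.4e-08), where the groups overlapped. The sixth, the glutamate receptor Grm8, did not pass (log2 difference 0.77, SE 0.27, adjusted p = 0.058). Lrrc52, known from mature IC neurons, had 1 UMI in all Lypd1-high cells. The other 4 genes are the class markers themselves, so this count adds little to them, and these values do not separate IB from IC.

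Single cells were compared after thinning to 3000 UMIs, which kept 772 Lypd1-high and 636 comparison cells. Runx1 had a UMI in 46.6% to 73.7% (median 56.1%) against 10.1% to 27.1% (median 18.6%) of the cells of a library. For Pou4f1 the medians over libraries were 42.9% and 3.62%, for Ntng1 59.5% and 22.9% and for Cdk14 64.5% and 15.1%. Each share was higher in Lypd1-high cells in 6 of 6 libraries (exact paired permutation test, two-sided p = 0.031, the smallest that 6 pairs allow, and 0.031 adjusted over the 4 genes). The 6 pairs are libraries from 3 litters and are not independent. The p-value therefore describes libraries, and a test by litter was not run for these shares. Without thinning the medians were 72.7% and 28.3% for Runx1, 72.8% and 11.9% for Pou4f1, 79.4% and 44.8% for Ntng1 and 86.6% and 26.3% for Cdk14. UMIs of 3 of the 4 genes were found in 31.6% of Lypd1-high cells and of all 4 in 12.95%, against 2.36% and 0.314% of comparison cells. None of the 4 was seen in 4.79% and 49.4%. Within the Lypd1-high cells, a UMI of one marker said little about another: Pou4f1 had one in 48.2% of cells with Runx1 and in 43.2% of cells without it, and Cdk14 in 71.5% of cells with Pou4f1 and 62.8% of those without. Cells share libraries, and these pair shares carry no test.

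The Lypd1-high cells were also split by their Lypd1 UMIs after thinning. The 29 of 772 whose Lypd1 UMIs were all lost in thinning are outside these bins, and of them 37.9% had a Runx1 and 41.4% a Cdk14 UMI. Runx1 had a UMI in 18.6% of 636 comparison cells, and among Lypd1-high cells in 30.4% of 79 with 1 Lypd1 UMI after thinning, 57.4% of 242 with 2 to 3, 57.2% of 187 with 4 to 5 and 65.1% of 235 with 6 or more. Over the same bins Pou4f1 had 7.23, 35.4, 40.1, 44.4 and 57.4%, Ntng1 26.3, 48.1, 50, 65.2 and 73.6%, and Cdk14 17.3, 55.7, 63.2, 70.6 and 74.5%. For Cdk14 and Pou4f1 the largest step was from the comparison cells to the first Lypd1-high bin, and for Runx1 it was from that bin to the next, after which Runx1 was level up to 5 UMIs. The first step is between classes and not between Lypd1 levels alone. Prph, a type II gene, had 43.6, 12.7, 11.98, 5.88 and 7.66%, and Necab1 17.9, 2.53, 2.89, 0.535 and 0%. The blood gene Hbb-bs stayed between 31.6% and 40.3%. The bins pool libraries and carry no test.

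**Figure D2:**
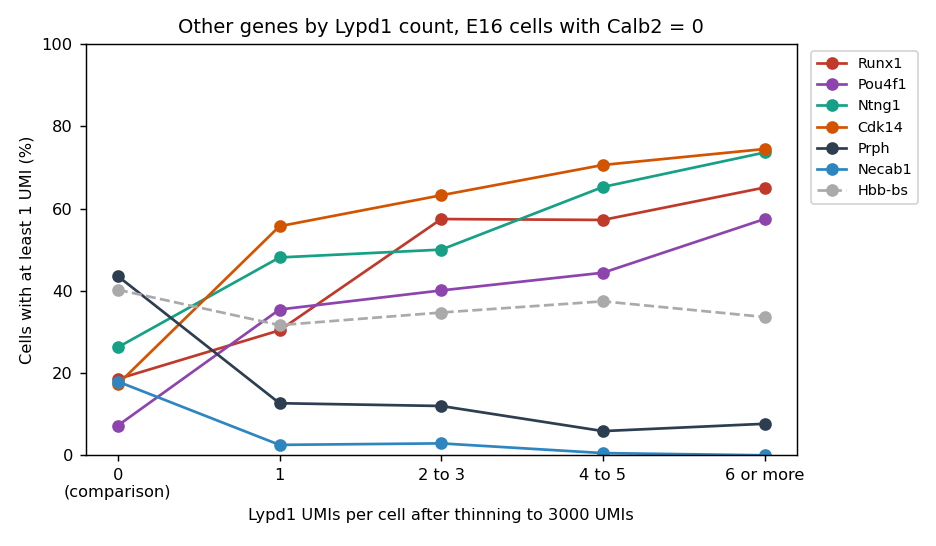
The percent of thinned E16 cells with at least 1 UMI (y axis) is drawn for 7 genes against Lypd1 UMIs per 3000 (x axis), comparison cells at 0 and Lypd1-high cells from 1 on, all 6 libraries together. In each Lypd1-high bin the 4 class markers are more frequent, and Prph and Necab1 less frequent, than in the comparison cells, and Hbb-bs stays between 31.6% and 40.3%.

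The genes most like Lypd1 were ranked over 7571 genes and 1554 thinned cells without Calb2, by the mean over 6 libraries of the within-library Spearman correlation. Pvalb (parvalbumin) led with 0.67, with the calmodulin gene Calm2 (0.55), H3f3a (0.47), Cdk14 (0.46), Fth1.1 (0.41), Pou4f1 (0.41), Runx1 (0.41), Ntng1 (0.39), RP23-127M7.1 (0.35) and Ostf1 (0.34) after it. Pvalb ranged from 0.608 to 0.755 between libraries, and Fth1.1 from -0.00234 to 0.751. Lypd1 also split these cells into the groups compared above, so the ranking restates that difference in part, and it is a description only.

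The 15 largest differences in each direction were taken by a rule on size and on the same sign in every library. These 30 genes and Ntng1 passed in each of 22 alternatives in which they were tested. The alternatives use the same libraries from which the 30 were chosen by size, so this follows largely from the choice. Grxcr1, a gene of hair cell bundles, led the higher genes with 20.7, 29.04 and 62.3 CPM against 0, 4.49 and 11.1 (log2 difference 3.16, SE 0.31, adjusted p = 6.7e-10). That value rests on 17 UMIs in all comparison cells, so its size is loosely fixed. Pvalb, a calcium buffer, was the most abundant of the 15, with 2300, 3068 and 3681 CPM against 380.3, 774 and 1157 (log2 difference 2.14, SE 0.09, adjusted p = 4.0e-19). Further log2 differences were 2.59 for the glycosyltransferase Mgat4c, 2.27 for the nuclear protein Tox, 2.17 for the citron kinase Cit, 2.11 for the nicotinamide riboside kinase Nmrk1 and 2.08 for the transcription factor Bhlhe22. Rbfox3 (the splicing factor NeuN) was at 2.08, Rnf150 at 2.08, Dytn at 1.98, Sema3a at 1.73 and the small GTPase Rasd2 at 1.71. Sema3a had 51.3, 109 and 184 CPM against 9.45, 35.2 and 56.8. Its libraries overlapped between the groups.

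Among the lower genes Nog (noggin, a secreted BMP antagonist) had 0, 1.79 and 8.93 CPM against 24.02, 30.9 and 37.5 (log2 difference -3.64, SE 0.35, adjusted p = 4.1e-10). Necab1, a neuronal calcium-binding protein, had 5.24, 8.90 and 16.5 CPM against 50.9, 86.7 and 171 (log2 difference -3.20, SE 0.19, adjusted p = 1.9e-15). Efna5 (ephrin-A5, a repulsive axon cue) had 0, 4.84 and 8.03 CPM against 27.2, 43.4 and 136 (log2 difference -3.19, SE 0.28, adjusted p = 7.4e-11). The value of Nog rests on 12 UMIs and that of Efna5 on 26 in all Lypd1-high cells, so their sizes are loosely fixed. Prph (peripherin, the intermediate filament kept by type II neurons) had 38.8, 50.6 and 65.9 CPM against 267, 311 and 430.5 (log2 difference -2.59, SE 0.10, adjusted p = 1.4e-20). Kctd12, an auxiliary subunit of GABA-B receptors, had 29.2, 33.7 and 42.8 CPM against 166, 204 and 302 (log2 -2.58, SE 0.10). The heparan sulfate enzyme Hs3st1 was at -2.42, the adhesion molecule Kirrel3 at -2.35, the exchanger Slc24a2 at -2.35 and the homeobox gene Prrx2 at -2.31. The others were Palmd (-2.20), the potassium channel Kcnc4 (-2.16), the NMDA receptor subunit Grin3a (-2.12), Dok5 (-2.05), Prune2 (-1.99) and the metalloprotease Mmp14 (-1.95). The 15 were chosen by size and by 1 sign in every library, so that their groups lie apart follows largely from the choice.

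**Figure D3:**
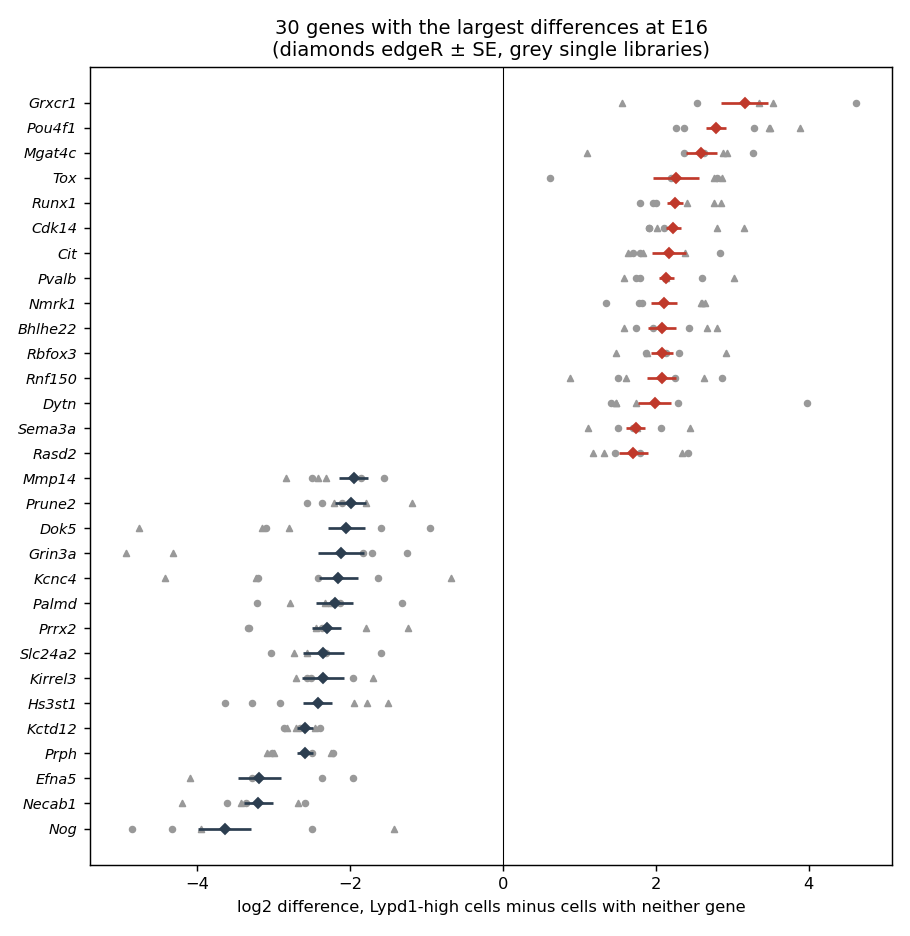
Diamonds give the log2 difference of Lypd1-high minus comparison cells at E16 (x axis) with its SE for 30 genes (y axis), and grey points give single libraries (circles apex, triangles base, libraries with 0 UMIs in a group not drawn). All drawn libraries of a gene lie on the side of 0 of its diamond, with Grxcr1 at 3.16 and Nog at -3.64 as the extremes.

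No tested marker of the other types was higher than in the comparison cells, where 6.57% of all genes tested were called higher and 5.71% lower. Of 3 tested IA markers 0 were higher and 1 lower: Rxrg, a retinoid receptor, had 16.6, 26.8 and 49.04 CPM against 55.4, 84.99 and 147 (log2 difference -1.70, SE 0.14, adjusted p = 1.4e-11). Of 5 tested type II markers 0 were higher and 4 lower. Among these were Prph, the neurotrophin receptor Ngfr (log2 -0.79, SE 0.09) and the transcription factor Gata3 (-0.40, SE 0.09), which acts in young spiral ganglion neurons at large. Without the library block Gata3 had an adjusted p of 0.556. Th, an enzyme of dopamine synthesis known from type II neurons, was too low to be tested, with 9 UMIs in Lypd1-high and 98 in comparison cells. The neuronal tubulin Tubb3 had 1521, 1844 and 2159 CPM against 1652, 1955 and 2072 (log2 difference -0.01, SE 0.05, adjusted p = 0.965).

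Runx1 and Pou4f1 were set beside relatives and cofactors. Of 15 tested Runx, Pou4 and Isl factors and cofactors 4 were higher and 5 lower (median log2 0.08), where 12.3% of all genes tested were called. The 4 include Runx1 and Pou4f1 themselves, and Bhlhe22, which is named above. Tle4, a corepressor of the Groucho family that Runx proteins can recruit, had 198, 271 and 295 CPM against 676, 719 and 897 (log2 difference -1.52, SE 0.06, adjusted p = 2.1e-19), with no overlap of libraries. Cbfb, the partner subunit of Runx proteins, was lower (log2 -0.65, SE 0.10), as were Pou4f2 (-0.91, SE 0.16) and Isl1 (-0.37, SE 0.05), while Runx1t1 was higher (0.92, SE 0.11). Without the library block Isl1 had an adjusted p of 0.054. Of 31 tested neuronal transcription factors 12 were higher and 6 lower (median 0.32). The 12 include Runx1, Pou4f1 and Rbfox3, which are described above. Bcl11a, a zinc-finger protein, had 159, 211 and 273 CPM against 72.6, 95.9 and 124 (log2 difference 1.23, SE 0.09, adjusted p = 5.2e-13).

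The families and partners of the markers were described next. Over all genes tested 12.3% were called in either direction. In a list of 4 or 5 genes, 1 call is too near that share to be a result about the list. Of 5 tested Ly6/uPAR genes (Lypd1 left out) 1 was higher and 0 lower: Lypd6 had 41.1, 79.8 and 108 CPM against 16.3, 33.9 and 44.3 (log2 difference 1.31, SE 0.14, adjusted p = 2.3e-09). Of 4 tested nicotinic receptor genes 1 was higher, the receptor chaperone Ric3 (log2 difference 0.44, SE 0.15, adjusted p = 0.045), a call lost in 16 alternatives, DESeq2 among them (adjusted p = 0.463). Of 8 tested netrin-G genes and ligands 2 were higher and 1 lower: Ntng1, the receptor phosphatase Ptprs (log2 0.55, SE 0.09) and the netrin receptor Unc5b (-0.67, SE 0.13). Of 12 tested Wnt genes 1, Cdk14, was higher and 3 were lower, Wnt5a (-1.06, SE 0.18), the receptor Fzd1 (-0.85, SE 0.19) and the secreted Wnt inhibitor Sfrp1 (-0.41, SE 0.13). Without the library block Ptprs had an adjusted p of 0.096, and DESeq2 gave 0.103 for Fzd1 and 0.313 for Sfrp1.

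Of the signalling and membrane lists, some held more called genes than the 12.3% over all genes and some did not. Of 14 tested BMP, Notch and FGF genes 7 were lower and 3 higher (median log2 -0.51). Id1, a target of BMP signalling, had 137, 213 and 232 CPM against 371, 466 and 621 (log2 difference -1.18, SE 0.07, adjusted p = 4.5e-15). The inhibitory Smad7 (log2 -1.19, SE 0.13) and Id3 (-0.67, SE 0.07) were lower too, while the growth factor Fgf10 was higher (0.95, SE 0.09). Of 15 tested calcium-binding genes 7 were higher, Pvalb and Calb1 among them, and 1, Necab1, lower. Calm2, a calmodulin gene, had 2231, 2946 and 3850 CPM against 1332, 1432 and 1478 (log2 difference 1.09, SE 0.07, adjusted p = 2.5e-15). Of 17 tested potassium channel genes 5 were higher and 4 lower. Kcna1, a channel of axons, had 60.97, 87.7 and 112 CPM against 9.45, 26.4 and 48.2 (log2 difference 1.68, SE 0.16, adjusted p = 4.8e-10), Kcnc2 was higher (log2 1.38, SE 0.18) and Kcnc4 and Kcnq3 were lower (log2 -2.16 and -1.08). Of 9 tested sodium channel genes 1 was higher and 2 lower. Of 24 synaptic release genes 2 were higher and 2 lower, of 10 glutamate receptor genes 1 and 1, and of 14 HCN and calcium channel genes 1 and 1, which is too near the share over all genes to be a result about these lists. Slc17a6, the vesicular glutamate transporter VGLUT2, had 74.4, 103 and 125 CPM against 16.3, 30.7 and 60.7 (log2 difference 1.63, SE 0.15, adjusted p = 9.1e-11).

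Over all genes tested 12.3% were called in either direction, the share to set beside the counts that follow. Axon guidance genes had 7 higher and 6 lower of 25 tested. Beside Sema3a and Efna5 these included the semaphorin receptor Plxna4 (log2 1.62, SE 0.18) and the neogenin ligand Rgma (0.99, SE 0.11). Cadherin and adhesion genes had 10 higher and 2 lower of 27, among them Lrrtm3 (0.76, SE 0.10), Tenm3 (0.63, SE 0.10) and Ntm (-0.56, SE 0.09). Of 7 tested neurotrophin and GDNF receptor genes 1, Ntrk2, was higher (0.40, SE 0.07) and 3 were lower, Gfra2 (-1.69, SE 0.30), Gfra1 (-0.82, SE 0.17) and Ngfr. Gfra1 had an adjusted p of 0.054 in DESeq2, and Ntrk2 of 0.103 in thinned cells. Without the library block it was 0.056 for Lrrtm3, 0.342 for Ntm and 0.135 for Fos described next. Cell cycle genes had 1 higher and 1 lower of 5 tested. The lower one, the inhibitor Cdkn1a, had 59.6, 93.7 and 131 CPM against 253, 263 and 399 (log2 difference -1.76, SE 0.12, adjusted p = 4.6e-14). Immediate early and stress genes had 2 higher and 3 lower of 13. Jun had 292, 446 and 566 CPM against 113, 151 and 201 (log2 difference 1.46, SE 0.10, adjusted p = 2.4e-14), and Fos was lower (log2 -0.69, SE 0.10). Neuroblast genes had 3 higher and 1 lower of 11, with Neurod1 at 0.82 (SE 0.18), a call lost in DESeq2 (adjusted p = 0.237). Axon cytoskeleton genes had 4 higher and 4 lower of 16, and spiral ganglion neuron markers 5 and 3 of 15.

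**Figure D4:**
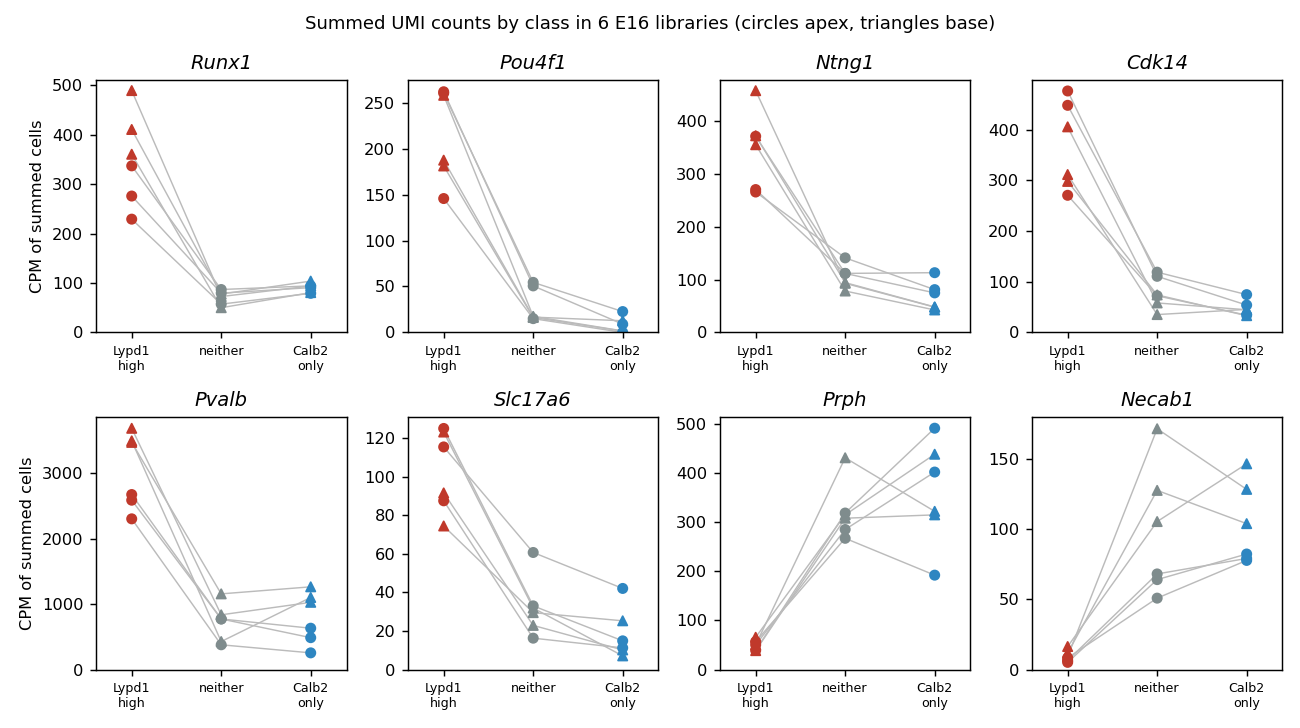
Each panel gives 1 gene's CPM (y axis from 0) in the summed cells of each E16 library for Lypd1-high cells, cells with neither gene and cells with Calb2 alone, with grey lines joining a library (circles apex, triangles base). Runx1, Pou4f1, Ntng1, Cdk14, Pvalb and Slc17a6 are highest and Prph and Necab1 lowest in the Lypd1-high cells of every library.

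Markers of other cells were summed per library in Lypd1-high and comparison cells. The 10 glial genes ranged from 59.4 to 93.4 against 63.4 to 83.1 CPM. The 10 mesenchymal genes ranged from 53.02 to 128 against 40.9 to 136 CPM, the 10 of supporting epithelium from 11.9 to 30.6 against 10.8 to 34.1 CPM and the 7 of endothelium from 5.35 to 10.99 against 0 to 17.4 CPM, with Cdh5, Tie1 and Flt1 at 0. These ranges overlap. The 8 macrophage genes ranged from 0 to 6.12 against 2.90 to 20.3 CPM and the 5 melanocyte genes from 0 to 2.98 against 0 to 5.45 CPM. The 5 vestibular neuron candidates ranged from 0 to 2.68 against 0 to 3.70 CPM. Of 5 geniculate neuron genes 4 were in the data. These summed to 128 to 194 against 148 to 249.8 CPM, with Phox2a and Tlx3 at 0 in Lypd1-high cells. The 9 hair cell genes summed to 2527 to 4023 against 639.6 to 1500 CPM. That list holds Pvalb, which was 2300, 3068 and 3681 CPM by itself in Lypd1-high cells, and Myo7a, Pou4f3 and Gfi1 were at 0. The 7 red blood cell genes summed to 40.1 to 628 against 31.9 to 459 CPM. Hba-a1 was higher in Lypd1-high cells (log2 difference 0.59, SE 0.16, adjusted p = 0.0098), a call lost in 8 alternatives, and Hbb-bs was not called (log2 difference 0.13, SE 0.12, adjusted p = 0.575). The part of blood RNA in the other differences was not tested.

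Against the 537 cells with Calb2 and no Lypd1, 904 of 8041 genes passed an adjusted p of 0.05 (11.2%), 488 higher (6.07%) and 416 lower (5.17%). The Lypd1-high sums are those of the comparison above. Pou4f1 had 0, 5.28 and 22.7 CPM in the Calb2 cells (log2 5.21, SE 0.22), and Sema3a 2.53, 10.8 and 42.1 CPM (3.12, SE 0.22). Cdk14 differed by 3.05 (SE 0.10), Slc17a6 by 2.85 (SE 0.23), Ntng1 by 2.73 (SE 0.14), Runx1 by 2.11 (SE 0.10) and Calb1 by 2.14 (SE 0.18). All 4 class markers were thus higher than in both kinds of Lypd1-negative cells. Prph (-2.91, SE 0.12), Kctd12 (-2.85, SE 0.11), Necab1 (-3.39, SE 0.19) and Rxrg (-1.92, SE 0.17) were lower. Of 5 tested type II markers 3 were lower and 1, the transcription factor Etv4, higher (0.87, SE 0.27, adjusted p = 0.035). Of 72 thinned cells with Calb2 and high Lypd1, 31.9% had 3 of the 4 markers and 4.17% all 4, against 0.652% and 0% of 460 cells with Calb2 alone.

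Apex and base were compared by the interaction of cell group and portion, in a fit that did not pair the libraries of a litter. In it 98 of 8286 genes passed an adjusted p of 0.05 (1.18%), 52 higher (0.628%) and 46 lower (0.555%), and 10 in DESeq2. Gata3 had 642, 660.4 and 565 CPM in Lypd1-high cells at the apex and 231, 319 and 223 at the base, and comparison cells had 658, 763 and 701 at the apex and 571, 454 and 436 at the base. Its difference was larger at the base, with a base minus apex value of -0.75 (SE 0.12, adjusted p = 1.1e-05, 0.065 in DESeq2 and 0.213 without litter 1). The differences of Runx1 (base minus apex 0.79, SE 0.19, adjusted p = 0.010), Pou4f1 (1.18, SE 0.31, adjusted p = 0.026) and Ntng1 (0.88, SE 0.18, adjusted p = 0.001) were larger at the base. In DESeq2 these had adjusted p of 0.440, 0.695 and 0.191. Leaving out litter 1 gave 0.253, 0.118 and 0.174, leaving out litter 2 0.046, 0.242 and 0.071, and leaving out litter 3 0.092, 0.289 and 1.1e-04. Cdk14 had a base minus apex value of 0.67 (SE 0.20), adjusted p = 0.076.

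The same rule at E14 took 396 of 1637 cells (24.2%), with a lower Lypd1 median of 6.17 per 10000, against 968 cells with neither gene. Here 1249 of 9425 genes passed an adjusted p of 0.05 (13.3%), 564 higher (5.98%) and 685 lower (7.27%), and 319 in DESeq2. Runx1 had 182, 149 and 188 CPM against 72.01, 49.3 and 59.4 in the 3 libraries (log2 difference 1.52, SE 0.12, adjusted p = 2.6e-15). Pvalb (1.30, SE 0.07), Nmrk1 (1.68, SE 0.16) and Grxcr1 (1.42, SE 0.24) were higher too, Grxcr1 not in cells of at least 5000 UMIs (adjusted p = 0.064). Markers of the other types were higher as well: 4 of 5 tested type II markers, among them Prph and Gata3 (0.49, SE 0.07), and 2 of 3 tested IA markers, Rxrg (0.57, SE 0.17) and Mdga1 (0.88, SE 0.10), with 0 lower in either list. Of 5 tested IB and IC markers 2 were higher, Runx1 and Calb1 (0.43, SE 0.11), and 1 lower (median log2 0.02). Rxrg was at -0.04 in cells of at least 5000 UMIs and was not called without E14 replicate 3 (adjusted p = 0.451), nor was Calb1 without E14 replicate 2 (adjusted p = 0.539), and DESeq2 called neither. Pou4f1 had 239, 261 and 278 CPM against 263, 284 and 288 (log2 difference -0.12, SE 0.08, adjusted p = 0.421). Ntng1 had 203, 339.7 and 305 CPM against 245, 277 and 290.2 (log2 difference 0.02, SE 0.09, adjusted p = 0.938). Neither was called. Cdk14 was lower, with 150.1, 328 and 160.1 CPM against 236, 356 and 245 (log2 difference -0.47, SE 0.09, adjusted p = 1.3e-04), which DESeq2 did not call (adjusted p = 0.109). Bhlhe22 was lower as well, with 26.04, 65.3 and 35.8 CPM against 108, 153 and 109 (log2 difference -1.61, SE 0.15, adjusted p = 1.9e-12).

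The E14 groups also differed in neuroblast genes, blood genes and depth. Of 13 tested neuroblast genes 1 was higher and 10 lower in Lypd1-high cells (median log2 -1.30). Neurod1, which drives neuronal differentiation, had 43.4, 108 and 41.8 CPM against 357, 968 and 477 (log2 difference -3.27, SE 0.10, adjusted p = 3.1e-32). All 3 tested red blood cell genes were lower in Lypd1-high cells (Hba-a1 -1.30, Hbb-bs -1.02, Hbb-bt -0.79), with Hbb-bs at 237, 207 and 131 CPM against 285, 242 and 574. The median depth was 5245.5 against 4513 UMIs, and cells of at least 5000 UMIs gave 219 calls. The part of maturity, blood RNA and depth in the E14 values was not tested.

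The change from E14 to E16 was tested as an interaction of cell group and age, added after seeing the data. In it 966 of 8425 genes passed an adjusted p of 0.05 (11.5%), 556 higher (6.6%) and 410 lower (4.87%), and 405 in DESeq2. The E16 difference exceeded that at E14 by 2.92 (SE 0.17) for Pou4f1, 2.71 (SE 0.15) for Cdk14, 1.65 (SE 0.17) for Ntng1 and 3.71 (SE 0.24) for Bhlhe22. For Runx1 it did so by 0.75 (SE 0.18, adjusted p = 0.0031, 0.053 in DESeq2) and for Pvalb by 0.85 (SE 0.16, adjusted p = 3.3e-04, 0.189 in DESeq2). In comparison cells Pou4f1, Cdk14, Ntng1 and Bhlhe22 had lower CPM in every E16 library than in any E14 library. In Lypd1-high cells the E14 and E16 ranges of these genes overlapped. At E16 Bhlhe22 had 38.7, 51.9 and 72.5 CPM against 5.54, 13.5 and 19.6 (lowest, median and highest library). For Runx1 every E16 library of Lypd1-high cells lay above every E14 one, and comparison cells overlapped. These ranges carry no test. Prph changed by -3.17 (SE 0.19), from 0.59 (SE 0.14) at E14 (adjusted p = 0.0015, 0.276 in DESeq2 and 0.124 without E14 replicate 3). Of 8129 genes tested at both ages 1052 were called at E14 and 956 at E16. Both called 335, which is 31.8% of the E14 and 35.04% of the E16 calls, 199 with the same and 136 with the opposite sign. The 3 tested red blood cell genes were among those with a positive change (Hba-a1 1.89, Hbb-bs 1.15, Hbb-bt 0.87), of which Hbb-bs was at 0.41 and not called without E14 replicate 3 (adjusted p = 0.307), and their part in the other changes was not tested. The E14 and E16 cells were chosen by the same threshold but differ in their Lypd1 level.

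At E18 and P1 the rule took 285 of 1326 cells, and 56 cells had neither gene, so 2 E18 libraries had 10 or more of those. In these 2 libraries 284 of 4633 genes passed an adjusted p of 0.05 (6.13%), 153 higher (3.3%) and 131 lower (2.83%), 48 in DESeq2 and 6 without the library block. Pou4f1 (log2 5.30, SE 0.66), Cdk14 (3.25, SE 0.35), Runx1 (2.97, SE 0.31) and Ntng1 (1.84, SE 0.22) were higher, and Prph was lower (-3.77, SE 0.26). All 5 tested type II markers were lower (median log2 -1.75), and of 2 tested IA markers 0 were higher and 1 lower. The cells with neither gene numbered 20 and 21 in these 2 libraries. Over E18 and P1 such cells made up 4.22%, against 31.7% at E16 and 59.1% at E14. Whether they are the same kind of cell at each age was not tested. Without the library block the adjusted p were 0.059 for Runx1, 0.131 for Ntng1 and 0.052 for Prph. Sums of at least 3 cells, chosen after seeing the data, brought in all 5 libraries and gave 389 calls, with Runx1 at 3.01 and Pou4f1 at 5.64. Against cells with Calb2 and no Lypd1, a comparison also added after seeing the data, 937 of 6379 genes passed an adjusted p of 0.05 (14.7%), 483 higher (7.57%) and 454 lower (7.12%) over 5 libraries. Pou4f1 had 106, 142 and 159 CPM against 0, 0 and 1.73 (lowest, median and highest library). Ntng1 had 429, 539 and 732 CPM against 15.99, 34.8 and 65.7 (log2 4.09, SE 0.12). Runx1 had 203, 272 and 367 CPM against 27.9, 32.9 and 52.8 (log2 3.08, SE 0.13). All 5 libraries of Lypd1-high cells lay above all 5 of Calb2 cells for these genes. Cdk14 was higher as well (3.55, SE 0.14).

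**Figure D5:**
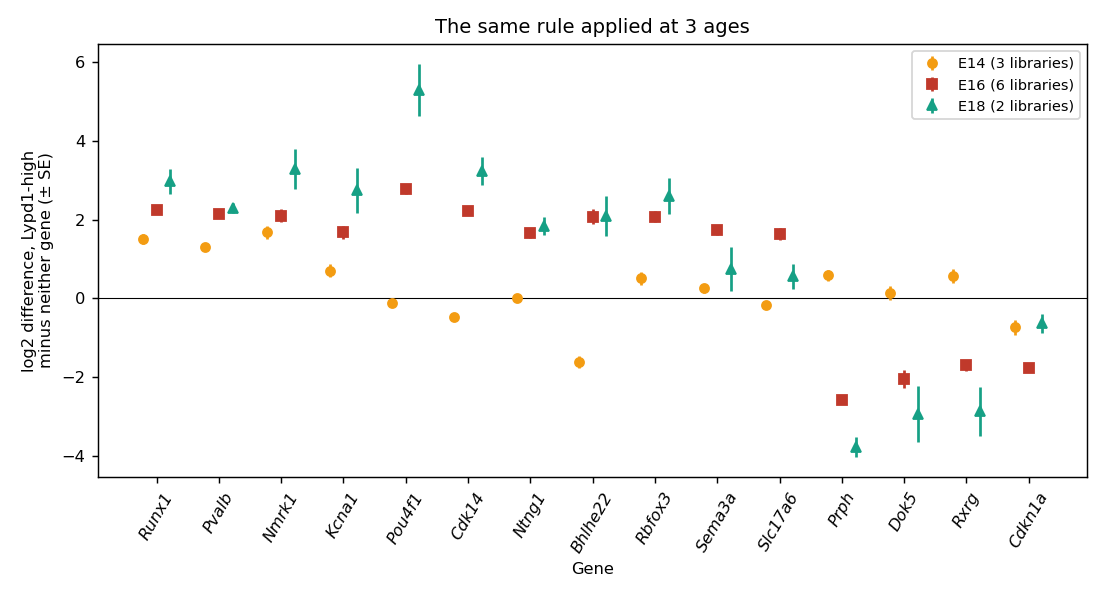
The log2 difference of Lypd1-high cells minus cells with neither gene (y axis, ± SE) is drawn by gene (x axis) at E14 (3 libraries), E16 (6 libraries) and E18 (2 libraries), where a gene was tested. Runx1 lies above 0 at all 3 ages, while Pou4f1 goes from -0.12 over 2.79 to 5.30 and Prph from 0.59 over -2.59 to -3.77. The cells with neither gene change with age as well, and at E18 they are 20 and 21 cells.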

How the data were processed

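Cells were dissociated ganglia run as droplet libraries. The submitters' processing notes name Cell Ranger 3.0.1, Seurat 3.2 and mm10; filters on cells and doublets are not given in the sources used here. The authors deposited raw UMI counts and a table of natural log (ln) values, taken after scaling each cell to 10000 UMIs and adding 1. The count table holds 17999 of 26655 genes; counts of the other 8656 (28.2% of UMIs) were computed back from the deposited ln values, all whole within 0.001. A cell's library was read from the number ending its name, matched to the sample numbers in the labels, which do not state this link. Every cell in the files was used, with no search for doublets.

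Counts were summed per library and cell class (at least 10 cells) and tested with edgeR 4.0.16 (quasi-likelihood, TMM, filterByExpr, Benjamini-Hochberg over all tested genes, threshold 0.05), with the library as block because each library holds both groups compared. Shares were compared by exact permutation over libraries. Alternatives (DESeq2 1.42.0, other thresholds, depths, blocks and left-out libraries) are in the closing section. Named genes were the class markers, the 15 largest called differences each way (1 sign in every library, and a mean CPM of 20 or more where higher) and up to 4 genes per list by adjusted p. Th, Lrrc52, Tubb3, Cbfb, Pou4f2, Runx1t1 and Etv4 were named after their values were seen. The members and lists were chosen with earlier results of these data known. Some genes that the rule takes are not reported here.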

Additional observations from a re-analysis of the deposited data

Results flagged for a closer look

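The difference of these genes between Lypd1-high and comparison cells was not the same at 2 ages, or in the 2 portions of the ganglion, by an interaction test in edgeR. No explanation was tested, and a change of the difference can lie in either group of cells. From E14 to E16 the log2 difference changed by 0.75 for Runx1, 2.92 for Pou4f1, 1.65 for Ntng1, 2.71 for Cdk14, 1.76 for Grxcr1, 1.72 for Mgat4c, 1.62 for Tox, 1.80 for Cit, 0.85 for Pvalb, 3.71 for Bhlhe22, 1.59 for Rbfox3, 1.37 for Rnf150 and 1.49 for Sema3a. It changed by -3.17 for Prph, -1.82 for Kctd12, -2.17 for Dok5 and -1.62 for Prune2. From apex to base it changed by 0.79 for Runx1, 1.18 for Pou4f1, 0.88 for Ntng1, 1.58 for Hs3st1 and -3.14 for Grin3a; in DESeq2 the adjusted p of these were 0.440 (Runx1), 0.695 (Pou4f1), 0.191 (Ntng1), 0.191 (Hs3st1), with none given for Grin3a. Leaving out a litter gave adjusted p of 0.181, 0.201 and 0.218 for Grin3a (without litter 1, 2 and 3), and for Hs3st1 0.126 without litter 1 and 0.091 without litter 3.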

How the results depend on the processing

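Depth limits single cells: thinning to 3000 UMIs left 151 of 466 cells of base replicate 2. Pairing the groups within a library is part of the design. With no replicate block, calls went from 1017 to 391 at E16, from 904 to 465 against Calb2 cells, from 1249 to 421 at E14, from 284 to 6 in the E18 libraries and from 937 to 255 against Calb2 cells at E18 and P1. With apex and base summed and litter as the block there were 1310 at E16. DESeq2 called 416, 512, 319, 48 and 415 in that order, 10 for apex against base and 405 for E16 against E14. At E16 the basal libraries alone gave 558 calls and thinned cells 490. Cells of at least 5000 UMIs gave 219 at E14 and 348 for E16 against E14. They turned Rxrg at E14 from 0.57 to -0.043 and P2rx3 from -0.32 to 0.00085 (log2), and the apical minus basal share to -2.71 points. Leaving out 1 library or litter gave 667 (without litter 3) to 987 calls at E16, 680 to 861 against Calb2 cells, 694 (without E14 replicate 3) to 1131 at E14, 722 to 885 at E18 and P1, 35 (without litter 1) to 75 for apex against base with 57 without litter 3, 612 (without E14 replicate 3) to 1010 for E16 against E14, and 13.99 to 23.6 points for the share. The differences in marker shares ranged over 36.8 to 40.1 points for Runx1, 33.6 to 38.7 for Pou4f1, 33.4 to 39.8 for Ntng1 and 47.9 to 49.2 for Cdk14, where 5 pairs cannot reach the threshold. Thinned to 5000 UMIs, Ntng1 differed by 29.6 points (exact permutation over libraries, which share litters, p = 0.0625). The causes were not tested.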
